A study of Gossypium with 24 samples.

Results

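Of 60633 gene IDs counted in cotton roots, 7 formed a small set that was induced by waterlogging in both varieties and, a day after drainage, was still far above its control in variety 4847 but close to its control in variety 9001. The members were chosen by their own levels. Counts were scaled to the library total, as CPM, and averaged over the 3 libraries of a group. A ratio is the log2 of waterlogged over control CPM, with 0.5 added to each. A member had a ratio of at least 2 at 0 h in both varieties, at least 2 at 24 h in 4847, and within 0.5 of 0 at 24 h in 9001. These ratios are therefore a description and carry no test. For 5 of the 7 genes the gap between the varieties came mostly from waterlogged roots, whose levels at 24 h were higher in 4847 than in 9001. For the other 2, on chromosomes A03 and D08, it came mostly or wholly from the controls.

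The libraries came from roots of Gossypium hirsutum seedlings at the 4-leaf stage. The submitters call variety ZM9001 (9001) tolerant of waterlogging and variety Z4847 (4847) sensitive to it. Control plants of each variety spent 96 h in darkness without flooding, and waterlogged plants spent the same 96 h flooded in darkness. Roots of both were taken at the end of that time, called 0 h, or after a further 24 h in light, for which the flooded plants were drained, so light and drainage are not separated at 24 h and every group had first been kept dark. Nothing says that libraries of 1 group are separate plants, so p-values measure the spread between libraries, which may be technical.

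Waterlogging shuts oxygen out of the soil, and roots then draw energy from glycolysis and fermentation in place of respiration. Drainage returns oxygen suddenly, which can raise reactive oxygen species, and genes induced by low oxygen usually fall again as air returns. Cotton is an allotetraploid with an A and a D subgenome, so many genes exist as a pair of similar copies. The deposited tables give IDs without names, so no function is given for any of the 7 genes, and neither pathway lists nor root marker genes could be checked. Reads of near-identical copies, or of genes that overlap on opposite strands, may have been shared between IDs. In whole roots, fewer cells of a type and less RNA per cell cannot be told apart.

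Library totals ran from 36096441 to 39945111 counts, except in waterlogged 4847 at 24 h, where they ran from 21423479 to 22442564. The TMM scaling of edgeR, which assumes that most genes do not change, gave mean factors between 0.584, for flooded 9001 roots at 0 h, and 1.47, for the controls of the later time. Over genes with enough counts, TMM raised a gene's ratio above that from library totals by a median of 0.59 in 4847 and 0.74 in 9001 at 0 h, and of 0.65 and 0.26 at 24 h. CPM values below are scaled by library totals, as in the choice of members, and fitted log2 fold changes are on the TMM scale.

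A split of this kind between the varieties was rare. Of the 60633 IDs, 2210 had a ratio of at least 2 at 0 h in both varieties, and 555 of these still had a ratio of at least 2 at 24 h in 4847. In 9001 at 24 h, 433 of the 555 had a ratio of at least 2 as well, 99 had a ratio from 1 to 2, 14 from 0.5 to 1, 7 within 0.5 of 0, and 2 at or below -0.5. The opposite pattern, high at 24 h in 9001 and within 0.5 of control in 4847, was found for 17 genes. The order of these counts depends on the scaling, since with TMM-scaled CPM 25 genes met the rule and 7 had the opposite pattern. The lowest ratio at 24 h in 4847 among members was 2.13, and the nearest gene below the limit had 1.94. The highest in 9001 was 0.48, and the nearest gene above the limit had 0.51, so the boundary in 9001 cuts through a continuous range.

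**Figure D1:**
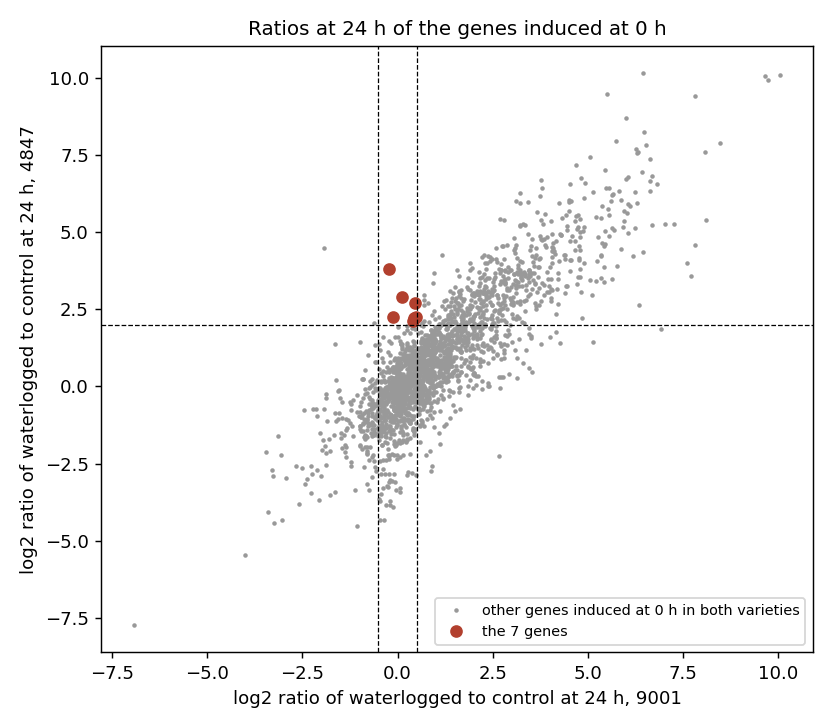
Log2 ratio of waterlogged to control CPM at 24 h in 4847 (vertical) against 9001 (horizontal) for the 2210 genes with a ratio of at least 2 at 0 h in both varieties, 1 point per gene, with dashed lines at the limits of the rule. The 7 genes (red) lie above 2 in 4847 and between -0.5 and 0.5 in 9001, at the edge of a cloud in which both ratios rise together.

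Ghir_A11G014880, a gene of 720 bases on chromosome A11, showed the pattern with the widest gap. At 0 h its CPM in the 3 libraries of a group was 2.32, 2.76 and 3.04 in control 4847 and 21.7, 21.9 and 20.3 in waterlogged 4847, against 3.27, 3.98 and 2.50 in control 9001 and 30.5, 33.7 and 34.3 in waterlogged 9001. At 24 h it was 0.836, 0.409 and 0.438 in control 4847 and 16.0, 14.6 and 12.8 in waterlogged 4847, against 2.00, 2.42 and 2.70 in control 9001 and 1.82, 2.05 and 2.06 in waterlogged 9001. The waterlogged 4847 libraries thus stayed above all controls a day after drainage, while in 9001 the waterlogged and control libraries overlapped. The ratios at 24 h were 3.82 in 4847 and -0.22 in 9001.

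The gene with the next ID number on A11, of 303 bases, was also among the 7. Its mean CPM in waterlogged 4847 was 7.57 ± 1.01 at 0 h and 5.50 ± 1.02 at 24 h (SD, n = 3), with 1.17 ± 0.224 and 0.298 ± 0.0825 in the controls. In waterlogged 9001 it was 11.9 ± 0.973 at 0 h and 1.09 ± 0.236 at 24 h, with 1.58 ± 0.396 and 0.953 ± 0.346 in the controls. Waterlogged and control libraries of 9001 overlapped at 24 h, and those of 4847 did not.

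Per length, the A11 neighbours had similar levels. In waterlogged 4847 at 24 h, FPKM was 20.1 ± 2.22 for Ghir_A11G014880 and 18.1 ± 3.36 for its neighbour, and in waterlogged 9001 at 0 h it was 45.6 ± 2.82 and 39.3 ± 3.21. Over single libraries of the 4 waterlogged groups, the shorter gene held between 0.300 and 0.636 counts for each count of the longer. No listed ID lies between them, and the nearest listed IDs on either side, outside the pair, had ratios of -1.91 and -1.16 at 0 h in 4847. Whether the pair is 1 transcription unit was not tested.

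Ghir_D03G017250, of 2032 bases on D03, had nearly the same mean CPM at 0 h and 24 h in waterlogged 4847, scaled by library totals. On the TMM scale it fell by less than 2-fold (fitted log2 fold change -0.46, edgeR adjusted p = 0.00166). In waterlogged 4847 it was at 18.2, 19.0 and 18.4 CPM at 0 h and at 19.6, 16.5 and 19.5 CPM at 24 h, with 3.76, 2.74 and 3.82 in the 0 h controls and 3.04, 4.48 and 3.04 in the 24 h controls. In waterlogged 9001 it was at 29.8, 26.7 and 26.7 CPM at 0 h and at 1.41, 2.67 and 2.65 CPM at 24 h, with 1.90, 2.52 and 1.85 in the 0 h controls and 2.34, 3.05 and 2.00 in the 24 h controls. The controls overlapped between 0 h and 24 h in each variety. At 24 h the ratio was 2.24 in 4847 and -0.11 in 9001. The ID just before it on D03 was more strongly induced at 0 h, with ratios of 4.90 in 4847 and 5.18 in 9001, but at 24 h its ratios were 0.75 and 0.45.

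Ghir_D11G029240, of 2094 bases on D11, declined in waterlogged roots of both varieties but further in 9001. In waterlogged 4847 it was at 42.9, 43.0 and 40.9 CPM at 0 h and at 19.4, 21.1 and 23.0 CPM at 24 h, with 5.84, 6.23 and 6.83 in the 0 h controls and 4.41, 4.48 and 3.42 in the 24 h controls. In waterlogged 9001 it was at 54.8, 47.1 and 53.2 CPM at 0 h and at 7.87, 8.59 and 9.59 CPM at 24 h, with 6.98, 4.61 and 5.22 in the 0 h controls and 6.43, 6.33 and 5.51 in the 24 h controls. In 9001 at 24 h each waterlogged library was still above each control, so this gene was near its control there and had not reached it. Its ratios at 24 h were 2.24 in 4847 and 0.48 in 9001, and leaving out 1 of 3 single libraries (control 9001 at 24 h, replicate 1 or 2, or waterlogged 9001 at 24 h, replicate 1) took it out of the set.

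The A06 gene, of 1055 bases, was barely detected in controls. Waterlogged 4847 had 4.85, 4.34 and 3.74 CPM at 0 h and 2.43, 3.70 and 3.82 CPM at 24 h. Waterlogged 9001 had 7.14, 5.95 and 5.56 CPM at 0 h and 0.733, 0.970 and 0.429 CPM at 24 h. All controls of both varieties were below 1 CPM, and those of 9001 at 0 h held 1, 9 and 0 counts, so ratios to that group are imprecise. The ratio at 24 h in 4847 was 2.13, the lowest of the 7, and in 9001 it was 0.42, with waterlogged and control libraries overlapping. It left the set without control 4847 at 24 h, replicate 3, control 9001 at 24 h, replicate 1, or waterlogged 9001 at 24 h, replicate 3.

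**Figure D2:**
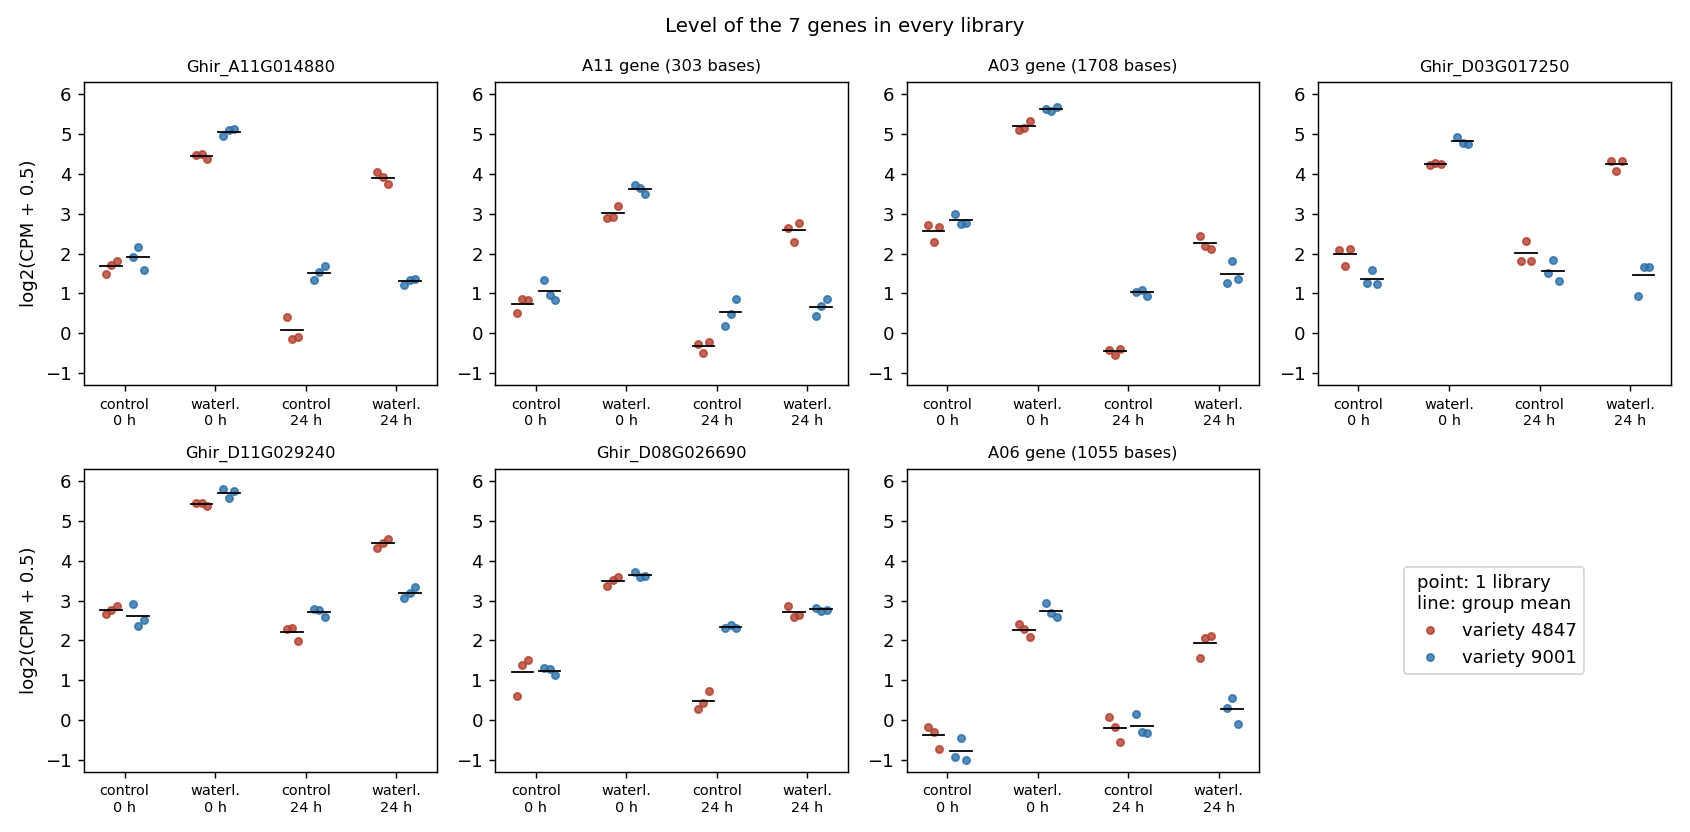
Level of each of the 7 genes as log2(CPM + 0.5) in the 24 libraries, by treatment and time, with 1 point per library and a line at each group mean (red 4847, blue 9001, 3 libraries per group). At 24 h the waterlogged 4847 libraries of Ghir_D03G017250 sit between 16.5 and 19.6 CPM and those of 9001 between 1.41 and 2.67, whereas for Ghir_D08G026690 the waterlogged libraries of both varieties sit between 5.48 and 6.77.

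For the remaining pair of genes the waterlogged roots of both varieties lay closer together at 24 h, and the controls lay further apart. The A03 gene, of 1708 bases, fell steeply in every group. Waterlogged 4847 held 36.2 ± 3.30 CPM at 0 h and 4.27 ± 0.551 CPM at 24 h, and waterlogged 9001 held 49.0 ± 1.77 and 2.33 ± 0.603 CPM (mean ± SD, n = 3). Control 4847 held 5.42 ± 0.920 CPM at 0 h and 0.230 ± 0.0442 CPM at 24 h, and control 9001 held 6.65 ± 0.673 and 1.54 ± 0.103 CPM. Its ratios at 24 h were 2.71 in 4847 and 0.47 in 9001, the former taken against a control mean of 0.230 CPM. In 9001 at 24 h each waterlogged library (1.90, 3.02 and 2.06 CPM) was still above each control (1.57, 1.63 and 1.43 CPM). Leaving out 1 of 3 single libraries (control 9001 at 24 h, replicate 2, or waterlogged 9001 at 24 h, replicate 1 or 3) took it out of the set.

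Ghir_D08G026690, of 2988 bases on D08, did not stay higher in waterlogged 4847 than in waterlogged 9001. At 24 h the waterlogged libraries were at 6.77, 5.48 and 5.76 CPM in 4847 and at 6.52, 6.20 and 6.32 CPM in 9001, and they overlapped. The controls at 24 h were at 0.710, 0.844 and 1.16 CPM in 4847 and at 4.50, 4.68 and 4.46 CPM in 9001, with no overlap. Each waterlogged library of 9001 was thus still above each 9001 control at 24 h. At 0 h the controls had been at 1.02, 2.09 and 2.33 CPM in 4847 and at 1.98, 1.91 and 1.69 CPM in 9001. The ratio at 24 h, 2.21 in 4847 and 0.44 in 9001, therefore separated the varieties through their controls, which goes against reading this gene as one that stays high in 4847 alone.

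The gap between the varieties in the ratio at 24 h is, by arithmetic, the difference between varieties in waterlogged roots minus that in control roots, and the rule fixes only that it exceeds 1.5. On the log2(CPM + 0.5) scale, the difference in waterlogged roots made up 119% of the gap for Ghir_D03G017250, 96.8% for the A06 gene, 70.5% for Ghir_D11G029240, 68.9% for the shorter A11 gene and 64.3% for Ghir_A11G014880. It made up 33.8% for the A03 gene and -4.19% for Ghir_D08G026690. A share above 100% means that the control difference had the opposite effect, as for Ghir_D03G017250, whose 24 h control was slightly higher in 4847.

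**Figure D3:**
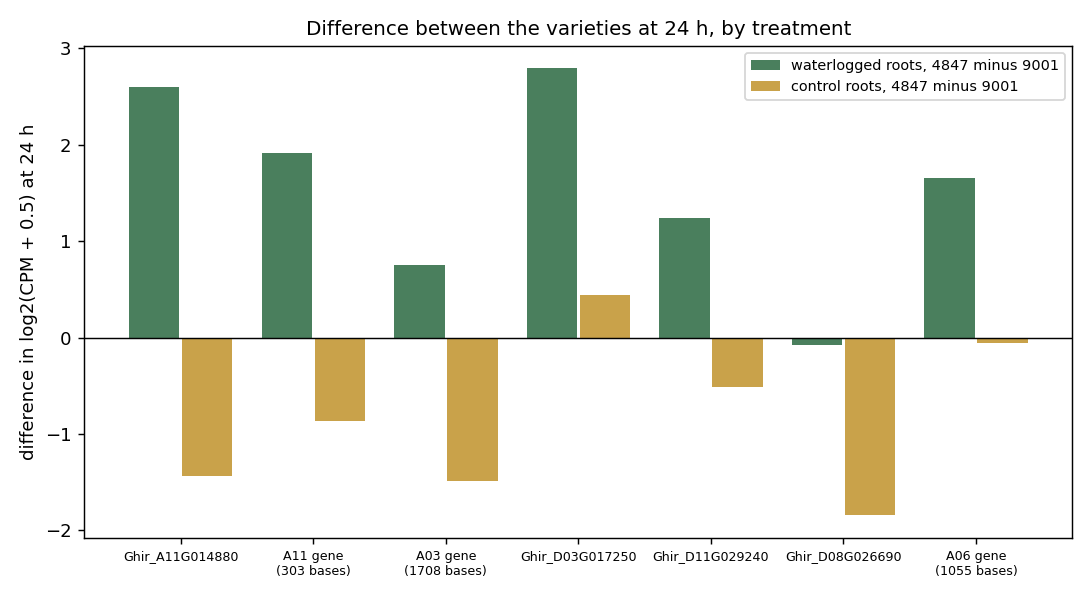
Difference between the varieties at 24 h (4847 minus 9001) in group means as log2(CPM + 0.5), for waterlogged (green) and control roots (yellow) of each of the 7 genes, with no error bars. Ghir_D03G017250 differs by 2.79 in waterlogged roots and 0.44 in controls, and Ghir_D08G026690 by -0.074 and -1.85.

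The changes from 0 h to 24 h within each treatment, on which the rule set no limit, were tested with edgeR's quasi-likelihood test over 50638 genes, of which all 7 were part. A gene is called at a Benjamini-Hochberg adjusted p under 0.05 and a fitted change of at least 2-fold. These comparisons share their libraries with the ratios of the rule, which favours some directions over others.

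In waterlogged 9001 all 7 genes fell from 0 h to 24 h, where 25.1% of all tested genes were called lower. A gene that starts high and ends near control is favoured to fall, so nothing is read from this count. The fitted log2 fold change was -5.46 (SE 0.122) for the A03 gene, -5.12 (SE 0.141) for Ghir_A11G014880, -4.69 (SE 0.156) for Ghir_D03G017250 and -4.51 (SE 0.218) for the shorter A11 gene. It was -4.18 (SE 0.344) for the A06 gene, -3.64 (SE 0.0971) for Ghir_D11G029240 and -1.98 (SE 0.153) for Ghir_D08G026690, and the adjusted p was at most 8.04e-15 (edgeR). Scaled by library totals alone, Ghir_D08G026690 was at -0.92 and it was not called.

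In waterlogged 4847, 4 of the 7 genes fell, where 23.3% of all tested genes were called lower, and none was called higher by edgeR or DESeq2 (0 also at an unadjusted p under 0.05), where 27.5% were. The rule favours a high level of these roots at both times, so it bears on both ends of this change. These counts are therefore a description. The fitted log2 fold change was -3.54 (SE 0.121) for the A03 gene, -1.45 (SE 0.0916) for Ghir_D11G029240, -1.29 (SE 0.160) for Ghir_D08G026690 and -1.01 (SE 0.117) for Ghir_A11G014880. The other fitted values were -0.92 for the shorter A11 gene, -0.83 for the A06 gene and -0.46 for Ghir_D03G017250, each with an adjusted p under 0.05 but less than 2-fold (edgeR adjusted p = 3.83e-05, 0.0136 and 0.00166). Scaled by library totals alone, the A03 gene was the 1 member called. Ghir_A11G014880 was not called without waterlogged 4847 replicate 2 at 0 h (log2 fold change -0.98) or replicate 3 at 24 h (-0.93), and without the latter the shorter A11 gene was called (-1.03).

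The difference between the varieties in this change uses the same waterlogged libraries as the rule, which favours a higher value in 4847, so its count and p-values are a description and support nothing. It was called for 6 of the 7 genes, all with the higher value in 4847, where 11.2% of all tested genes were called in that direction and 14.8% in the other. It was largest for Ghir_D03G017250 at 4.23 on the log2 scale (SE 0.204) and Ghir_A11G014880 at 4.10 (SE 0.185), followed by 3.60 for the shorter A11 gene, 3.35 for the A06 gene, 2.18 for Ghir_D11G029240 and 1.92 for the A03 gene, with an adjusted p of at most 3.92e-08 (edgeR). For Ghir_D08G026690 it was 0.69 (SE 0.221, edgeR adjusted p = 0.00908), under 2-fold.

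Controls of some of the 7 genes also changed over the same 24 h, as did those of many tested genes. In control 4847, 5 of 7 fell, where 18.2% of all tested genes were called lower, and none was called higher by edgeR or DESeq2 (0 also at an unadjusted p under 0.05), where 28.2% were. The rule favours a low control in 4847 at both times, since that raises the ratios, so these counts are a description. The fitted log2 fold change was -5.02 (SE 0.216) for the A03 gene, -2.75 (SE 0.217) for Ghir_A11G014880, -2.44 (SE 0.321) for the shorter A11 gene, -1.49 (SE 0.226) for Ghir_D08G026690 and -1.10 (SE 0.121) for Ghir_D11G029240. The last was not called with library totals alone (-0.62), RLE scaling (-0.97), DESeq2 (-0.97) or without control 4847 replicate 3 at 24 h (-0.99). Ghir_D03G017250 was at -0.45 and the A06 gene at -0.01, and with library totals alone these were 0.034 and 0.47.

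In control 9001, 2 of 7 genes fell, where 16.8% of all tested genes were called lower, and 1 rose, where 26.4% were called higher. The rule favours a low control in 9001 at 0 h, so these counts too are a description. Those that fell were the A03 gene, with a log2 fold change of -2.58 (SE 0.146), and the shorter A11 gene, with -1.20 (SE 0.251). The latter was not called with library totals alone (-0.72) or without control 9001 replicate 1 at 0 h or at 24 h (-0.98 in each case). The A06 gene rose by 1.70 (SE 0.636, edgeR adjusted p = 0.0155) on few counts, and lost its call without control 9001 replicate 1 at 0 h (1.29), replicate 3 at 0 h (1.13) or replicate 1 at 24 h (1.29). Ghir_D08G026690 was at 0.81 (SE 0.182, edgeR adjusted p = 1.18e-04), under 2-fold, and was called at 1.29 with library totals alone. Ghir_A11G014880 was at -0.93, and was called at -1.09 without control 9001 replicate 3 at 0 h and at -1.03 without replicate 3 at 24 h, which with the others made 3 of 7 lower.

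The control change itself differed between the varieties for 4 of the 7 genes, all lower in 4847, where 1.34% of all tested genes were called in that direction and 1.7% in the other. The A03 gene differed by -2.43 (SE 0.316, edgeR adjusted p = 9.79e-08), Ghir_D08G026690 by -2.30 (SE 0.290, edgeR adjusted p = 5.15e-08), Ghir_A11G014880 by -1.82 (SE 0.281, edgeR adjusted p = 3.46e-06) and the shorter A11 gene by -1.24 (SE 0.419, edgeR adjusted p = 0.0440). The call of the shorter A11 gene was lost with the replicate number as a block (edgeR adjusted p = 0.0502), with library totals alone (edgeR adjusted p = 0.0502), with only the groups compared (edgeR adjusted p = 0.0694) and without any 1 of 9 of the 12 control libraries. For the other 3 genes the call held in each of these settings. The A06 gene was called as well (-4.18) without control 9001 replicate 2 at 0 h, where the libraries left held 1 count. A lower 24 h control in 4847 is itself favoured by the rule, since it raises the ratio there.

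**Figure D4:**
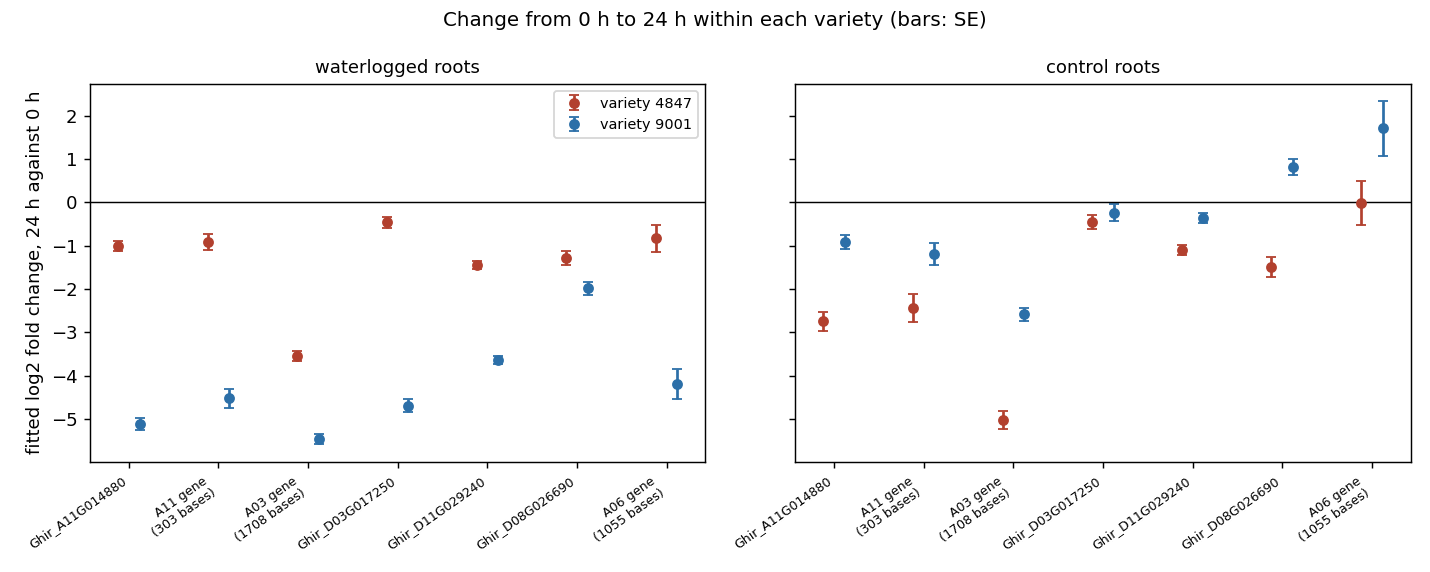
Fitted log2 fold change from 0 h to 24 h of each of the 7 genes in waterlogged (left) and control roots (right), red for 4847 and blue for 9001, with bars of 1 SE from the edgeR fit over 24 libraries. In waterlogged roots Ghir_D03G017250 is at -0.46 in 4847 and -4.69 in 9001, while Ghir_D08G026690 is at -1.29 and -1.98.

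At 0 h fewer of the 7 genes were called between the varieties than at 24 h. The rule asks for a gap between the varieties at 24 h only, which favours this, so nothing is read from it. In controls the fitted difference was larger at 0 h than at 24 h for the A06 gene (1.60 and -0.11) and Ghir_D03G017250 (0.73 and 0.52), and smaller for the others. In 0 h controls none of the 7 genes was called between the varieties, where 1.47% of all tested genes were called higher and 2.55% lower in 4847. At an unadjusted p under 0.05 (edgeR), 2 were higher and 1 lower in 4847, and the share over all genes at that threshold was not counted. By edgeR without the 2-fold condition 1 gene, Ghir_D03G017250, was higher in 4847 (log2 0.73, edgeR adjusted p = 0.00330), beside 3715 of 50638 tested genes. DESeq2 called the A06 gene higher in 4847 (1.63, adjusted p = 0.0366), and so did edgeR without control 9001 replicate 2 at 0 h. In waterlogged roots at 0 h the fitted difference was below 0 for all 7, from -0.82 to -0.32. None was called by edgeR or DESeq2, where by edgeR 3.67% of all tested genes were called higher and 4.72% lower in 4847. At an unadjusted p under 0.05 (edgeR), 7 were lower, and the share over all genes at that threshold was not counted, so nothing is read from it. Without the 2-fold condition 5 of the 7 were lower in 4847, where 7913 of 50638 tested genes were lower. Ghir_D08G026690 and the A06 gene were the exceptions (edgeR adjusted p = 0.0898 and 0.0612).

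At 24 h the order in waterlogged roots was the other way round. Of the 7 genes, 6 were called higher in waterlogged 4847 than in waterlogged 9001, where 10% of all tested genes were called in that direction, and none was called lower by edgeR or DESeq2 (0 also at an unadjusted p under 0.05), where 19.6% were. The rule favours this direction, so the count is a description. The fitted difference was 3.49 (SE 0.161) for Ghir_D03G017250, 3.31 (SE 0.149) for Ghir_A11G014880, 2.78 (SE 0.229) for the shorter A11 gene, 2.66 (SE 0.356) for the A06 gene, 1.73 (SE 0.102) for Ghir_D11G029240 and 1.32 (SE 0.162) for the A03 gene. With library totals alone the A03 gene was at 0.87 and not called. Ghir_D08G026690 was at 0.36 (SE 0.165, edgeR adjusted p = 0.0531), and at -0.081 with library totals alone.

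In 24 h controls, 4 of the 7 genes were lower in 4847, where 2.66% of all tested genes were called lower, and none was called higher by edgeR or DESeq2 (1 at an unadjusted p under 0.05), where 1.64% were. They were the A03 gene at -2.71 (SE 0.283), Ghir_D08G026690 at -2.32 (SE 0.203), Ghir_A11G014880 at -2.07 (SE 0.224) and the shorter A11 gene at -1.66 (SE 0.334). Ghir_D11G029240 was at -0.56, Ghir_D03G017250 at 0.52 and the A06 gene at -0.11. The count of 4 was the same with each other scaling, filter, tool, block and left-out library tried. Without the 2-fold condition it was 5, where 5037 of 50638 tested genes were lower. The direction is again one that the rule favours.

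Chromosome label, neighbouring IDs and length were the other features that could be compared. Of the 7 genes, 4 carried an A and 3 a D chromosome label, and the A11 neighbours were the only members with adjoining ID numbers. Among the 14 nearest listed neighbours of the 7, none other than the A11 pair was a member and 1 other, beside Ghir_D03G017250, had a ratio of at least 2 at 0 h in both varieties. Lengths ran from 303 to 2988 bases with a median of 1708, beside 1770 over all genes with a length. Per length, Ghir_A11G014880 led in waterlogged 4847 at 24 h with 20.1 ± 2.22 FPKM and Ghir_D08G026690 was lowest with 2.01 ± 0.227 (SD, n = 3).

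The 7 genes had smaller ratios at 0 h than the 433 genes that were high at 24 h in both varieties, with medians of 2.63 in 4847 and 3.10 in 9001, against 4.06 and 4.37. The medians were 2.74 and 2.87 in the 362 genes near control at 24 h in both varieties, and 3.05 and 3.27 in all 2210 induced genes. The 17 genes with the opposite pattern had a median of 12.3 CPM in waterlogged 4847 at 0 h and 0.287 CPM at 24 h, and of 16.7 and 3.37 CPM in waterlogged 9001. In the 17, the median difference between varieties at 24 h was -2.06 in waterlogged roots and 0.21 in controls on the log2(CPM + 0.5) scale, against 1.66 and -0.86 in the 7. All these groups were chosen by the same ratios, so the differences are given without a test.

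The rule was also applied without 1 replicate number, and the genes it then chose were looked at in the left-out libraries. The 7 members were chosen with all 24 libraries, so this does not test them. Without replicate 1 of every group it chose 4 genes, all 4 members. In the left-out libraries 4 of them had a ratio of at least 2 at 24 h in 4847, 3 were within 0.5 in 9001 and 3 met both limits. Without replicate 2 it chose 8 genes, 6 of them members. Of the 8, 7 and 4 met these limits in the left-out libraries and 3 met both. Without replicate 3 it chose 8, again with 6 members. Of these 8, 5 and 6 met the limits and 4 met both. The limits at 0 h were not part of these counts. The A11 pair, Ghir_D03G017250 and Ghir_D08G026690 were chosen all 3 times, and also when any 1 of the 24 libraries was left out. With TMM-scaled CPM all 7 kept a ratio of at least 2 at 24 h in 4847, but 3 had a ratio from 0.5 to 1 in 9001, namely Ghir_D11G029240 at 0.72, Ghir_D08G026690 at 0.67 and the A03 gene at 0.64. On that scale 25 genes met the rule, 4 of them among the 7.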

How the data were processed

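RNA sequencing counts of 24 root libraries, 3 for each of 8 groups, were used as deposited. The deposited counts are whole numbers per gene ID. The FPKM values, made by the authors, equal the count per library total and gene length, and gave a whole length within 0.01 bases for 60632 IDs; 1 malformed FPKM line was left out. The sources used here do not give the aligner, counting tool or use of strand, and the submitters' processing notes name mm 10, a mouse assembly, so the build behind the cotton IDs is not known.

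The members and comparisons were chosen with earlier results of these data known. Counts were fitted with edgeR 4.0.16 in R 4.3.3 (filterByExpr, TMM, glmQLFit, glmQLFTest), with a term for each group, leaving 16 residual degrees of freedom, over 50638 genes and 10 contrasts. An SE is the fold change divided by the square root of F. The fit pools the spread over groups. Alternatives were library totals, RLE scaling, no filter, DESeq2 1.42.0, only the groups compared, a replicate block, no 2-fold condition, and each library left out. The rule was also varied in scaling, pseudocount and limit.

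Without gene names, 4 IDs are printed: of members with at least 5 CPM in waterlogged 4847 at 24 h and waterlogged 9001 at 0 h, the 2 with the largest called rise of the 9001 control (none qualified) and the 2 with the largest fall in waterlogged 9001, with open places filled by the highest CPM in waterlogged 4847 at 24 h. The other 3 members are given by chromosome label.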

Additional observations from a re-analysis of the deposited data

Results flagged for a closer look

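The change from 0 h to 24 h differed between the varieties by the test of the interaction, 4847 minus 9001. The libraries are those that chose the members, and the rule favours a positive difference in waterlogged roots and a negative one in controls, so these values are a description. In waterlogged roots this held for 6 genes, all higher in 4847, where 11.2% of all tested genes were called in that direction. They were Ghir_A11G014880 (4.10 on the log2 scale), its shorter A11 neighbour (3.60), the A03 gene (1.92), Ghir_D03G017250 (4.23), Ghir_D11G029240 (2.18) and the A06 gene (3.35). In control roots it held for 4 genes, all lower in 4847, where 1.34% of all tested genes were called in that direction. They were Ghir_A11G014880 (-1.82), its neighbour (-1.24), the A03 gene (-2.43) and Ghir_D08G026690 (-2.30). Depth was lower in waterlogged 4847 at 24 h than in the other groups, and its part in the waterlogged differences was not tested. The control groups had no such gap in depth.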

How the results depend on the processing

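The set depended strongly on how levels were scaled and on the limits. Against 7 genes, the rule gave 25 with TMM-scaled CPM, 12 with a pseudocount of 0.1, 4 with a pseudocount of 1, 3 with a limit of 0.25 in 9001, 22 with a limit of 1, and 4 to 9 when replicates were left out (4 without replicate 1 of every group). With every library thinned to 21000000 counts, a setting chosen after seeing the data, 7 genes met it and 6 were the same. The A03 gene, Ghir_D11G029240 and the A06 gene left the set with a pseudocount of 0.1. With TMM-scaled CPM the members' median ratios were 3.23 in 4847 and 3.94 in 9001 at 0 h and 2.87 in 4847 at 24 h, and 3799 genes were induced at 0 h, 620 were near control in both varieties and 7 had the opposite pattern.

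Without the 2-fold condition, control 9001 over time had 2 members higher and 4 lower, beside 19478 and 17713 of the 50638 tested genes. Waterlogged 4847 over time had 7 lower, beside 17327 genes. For 4847 against 9001, 1 member was higher in 0 h controls (beside 3715 genes) and 1 in 24 h controls (beside 4598). In waterlogged roots at 0 h, 5 were lower in 4847, beside 7913 genes. With library totals alone, control 9001 had 2 higher and 1 lower, beside 18274 and 4754 genes. Waterlogged 4847 then had 1 lower, beside 8339 genes. DESeq2 called 1 member higher in 4847 in 0 h controls, beside 809 of 60633 genes. With single libraries left out, control 9001 gave 0 to 1 higher and 1 to 3 lower, control 4847 gave 4 to 5 lower, waterlogged 4847 gave 3 to 4 lower, 0 h controls gave 0 to 1 higher in 4847, and the control difference in change gave 3 to 4 lower. The other counts did not move when a library was left out.

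Some fold changes that were under 2-fold in the main fit turned sign. Of these, 1 in control 4847 over time, Ghir_D03G017250 (-0.45, edgeR adjusted p = 0.0145), had a main adjusted p under 0.05. So did Ghir_D11G029240 in control 9001 (-0.36, edgeR adjusted p = 0.00582), so the direction of these changes depends on the scaling. In control 4847 over time, Ghir_D03G017250 was at 0.034 and the A06 gene at 0.47 with library totals, and the A06 gene was at 0.13 with RLE, 0.021 with only the groups compared, 0.13 with DESeq2 and -0.42 to 0.35 with single libraries left out. In control 9001, Ghir_D03G017250 was at 0.24 and Ghir_D11G029240 at 0.12 with library totals. Between varieties, Ghir_D08G026690 was at -0.24 to 0.27 in 0 h controls and the A06 gene at -0.52 to 0.30 in 24 h controls with single libraries left out, and Ghir_D08G026690 was at -0.081 in waterlogged roots at 24 h with library totals. None of these values was called. Of 993 single-gene alternatives, 977 kept their direction. These include the setting without the 2-fold condition, whose fold changes are those of the main fit and cannot turn sign. They also include refits that shared most of their libraries with it, so the total is only a description. The causes were not tested beyond the construction of each setting.

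Same-numbered libraries did not deviate together (correlations from -0.053 to 0.031). The labels give them only a number, so whether they share a plant or batch is not known. With the replicate block, 3 members were lower in the control difference in change, against 4, and the block moved no other count of called members.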
